A study of Mus musculus with 8 samples.

Results

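V(D)J recombination and non-homologous end joining were described here through 10 genes: Rag1, Rag2, Dntt, Xrcc6, Xrcc5, Prkdc, Dclre1c, Xrcc4, Lig4 and Nhej1. Members were the probe sets of an Affymetrix whole-genome mouse array whose single gene symbol in the platform annotation was one of these names. The rule found 14 probe sets for 9 of the 10 genes, among 18193 genes with such a probe set. Dclre1c, which encodes the hairpin-opening nuclease Artemis, had no probe set under the rule and was not analysed here.

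Developing T cells assemble their antigen receptor genes by cutting and rejoining V, D and J segments. The Rag1 and Rag2 proteins together make the cut. The Ku proteins Xrcc6 and Xrcc5 bind the broken ends and recruit the kinase Prkdc with Artemis, terminal transferase (Dntt) adds untemplated nucleotides, and the ligase Lig4 seals the join with Xrcc4 and Nhej1. In double-positive thymocytes, which carry CD4 and CD8, the T-cell receptor alpha locus is the one being rearranged, and both Rag genes are highly expressed.

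RNA came from thymocytes of mice aged 4 to 5 weeks, on 8 arrays that the titles number as biological replicates; whether animals were pooled is not stated. All mice were Tcra-/-, so their cells lack the alpha chain and stop before positive selection, and all source names carry Cd4-Cre, which acts in cells that switch on Cd4. Magnetic selection with an antibody to CD4 was used to enrich them, and it retains any CD4-bearing cell. The titles and the genotype field give 4 Control arrays as c-Myb sufficient and 4 Mutant arrays as c-Myb deficient, whereas the source names give the Control arrays Mybf/f and the Mutant arrays Mybf/w. This conflict was not settled by the data: Myb itself differed by 0.28 on the log2 scale (higher on Mutant arrays, limma adjusted p = 0.0619). Every difference below is therefore Mutant minus Control as titled, and the comparison asks how the genes of receptor assembly differ between the groups.

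All arrays had the same trimmed mean signal, and array medians were 30 to 37.9. Scaling of this kind removes differences in total RNA per cell, and in bulk RNA fewer expressing cells and less RNA per cell cannot be told apart. Thymocyte identity genes were bright: the summed signal of 10 genes including Cd4, Cd8a, Cd8b1, Cd3e and Ptcra was 55927 to 62469 on Control and 57689 to 64056 on Mutant arrays. Of these 10, 1 was called, against 9.98% of all tested genes. It was Cd247, the CD3 zeta chain gene (log2 -0.25, limma adjusted p = 0.0266), at 0.45 and -0.24 on its other probe sets. Its call ended in 6 of the 8 fits without 1 array (adjusted p = 0.0501 to 0.0770). The level of Xist, a sex-linked gene, moved with the groups: it was 4129 to 5736 on Mutant arrays, 4358.5 on Control replicate 1 and 23.4 to 36.7 on the other Control arrays. Apart from Control replicate 1, a difference by group and a difference by sex cannot be told apart. Mutant replicate 4 stood apart in its 18S ribosomal RNA control, 7143 against 676.1 to 1459 elsewhere.

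Promoter windows of the 3 genes on which the results turn most, Rag1, Rag2 and Lig4, are printed first, because c-Myb is a DNA-binding factor and has been reported to bind the proximal mouse Rag2 promoter in T-lineage cells. Sequences are those of RefSeq on GRCm38.p6, from 250 bases before to 50 bases after the annotated start, and 9 of the 10 genes had a window in the table (Prkdc is named only). Each is written 5′ to 3′ on the strand of its gene. Capitals mark matches, on either strand, to the Myb-type motifs TAACTG or CAACTG, and likewise TAACGG or CAACGG.
Rag2, chr2:101624462-101624761, plus strand: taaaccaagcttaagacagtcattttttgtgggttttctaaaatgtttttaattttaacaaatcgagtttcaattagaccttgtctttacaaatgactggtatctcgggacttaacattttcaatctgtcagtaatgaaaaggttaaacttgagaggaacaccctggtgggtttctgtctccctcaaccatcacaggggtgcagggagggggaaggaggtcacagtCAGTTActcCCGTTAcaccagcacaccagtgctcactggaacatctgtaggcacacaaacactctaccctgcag
Rag1, chr2:101649483-101649782, minus strand: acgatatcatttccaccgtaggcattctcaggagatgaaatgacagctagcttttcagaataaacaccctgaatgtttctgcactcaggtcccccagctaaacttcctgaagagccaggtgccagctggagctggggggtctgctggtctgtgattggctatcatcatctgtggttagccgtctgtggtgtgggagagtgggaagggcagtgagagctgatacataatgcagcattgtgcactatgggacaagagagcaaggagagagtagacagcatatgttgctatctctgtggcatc
Lig4, upstream start, chr8:9977631-9977930, minus strand: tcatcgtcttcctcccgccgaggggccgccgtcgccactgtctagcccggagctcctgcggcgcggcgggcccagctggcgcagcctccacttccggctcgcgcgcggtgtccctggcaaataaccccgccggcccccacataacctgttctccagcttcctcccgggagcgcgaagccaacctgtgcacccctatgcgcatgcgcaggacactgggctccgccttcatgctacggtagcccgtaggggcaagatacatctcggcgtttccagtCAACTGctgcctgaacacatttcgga
Lig4, downstream start, chr8:9976262-9976561, minus strand: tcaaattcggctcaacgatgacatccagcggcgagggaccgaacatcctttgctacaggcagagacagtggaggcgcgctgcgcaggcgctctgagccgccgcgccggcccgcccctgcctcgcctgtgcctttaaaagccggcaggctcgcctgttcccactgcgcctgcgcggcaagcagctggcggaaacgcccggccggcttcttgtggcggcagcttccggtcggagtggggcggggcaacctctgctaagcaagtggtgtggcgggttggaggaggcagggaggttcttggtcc

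The Rag2 window held 2 matches, TAACTG at positions -24 to -19 and TAACGG at -15 to -10 from the start, both on the reverse strand. The Rag1 window held 0 matches. The upstream Lig4 window held 1, CAACTG at positions 25 to 30, which also spells the E-box CANNTG, and the downstream Lig4 window held 0. Among 32851 windows of the same length, 28.3% held any of the 4 motifs, 5.09% held at least 2, and 0.32% held 2 whose first bases lay at most 9 apart, a spacing read off the Rag2 window. A match of letters is not a binding site, and binding was not measured. The windows of Dntt, Xrcc6, Xrcc5, Xrcc4 and Nhej1 held 0 matches, and that of Dclre1c held 1.

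Of the 9 measured genes, 4 were lower and 1 was higher on Mutant arrays, and 4 did not pass the test. Lig4 fell most, to 29.1% of its Control mean, followed by Xrcc6 (60.6%), Rag2 (75.4%) and Dntt (83.7%). Xrcc5 rose to 133% of its Control mean, while Rag1, Prkdc, Xrcc4 and Nhej1 did not pass. All calls are from limma on log2(signal + 16), with 1 probe set per gene and Benjamini-Hochberg adjustment over 9941 genes at a threshold of 0.05. In that fit 9.98% of all tested genes were called, 4.08% lower and 5.89% higher. The median log2 difference was -0.23 over the 9 genes and 0.02 over all tested genes. Of the 9 genes, 4 were lower on all Mutant arrays than on any Control array, against 7.11% of all tested genes, and 1 was higher on all of them, against 9.88%.

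**Figure D1:**
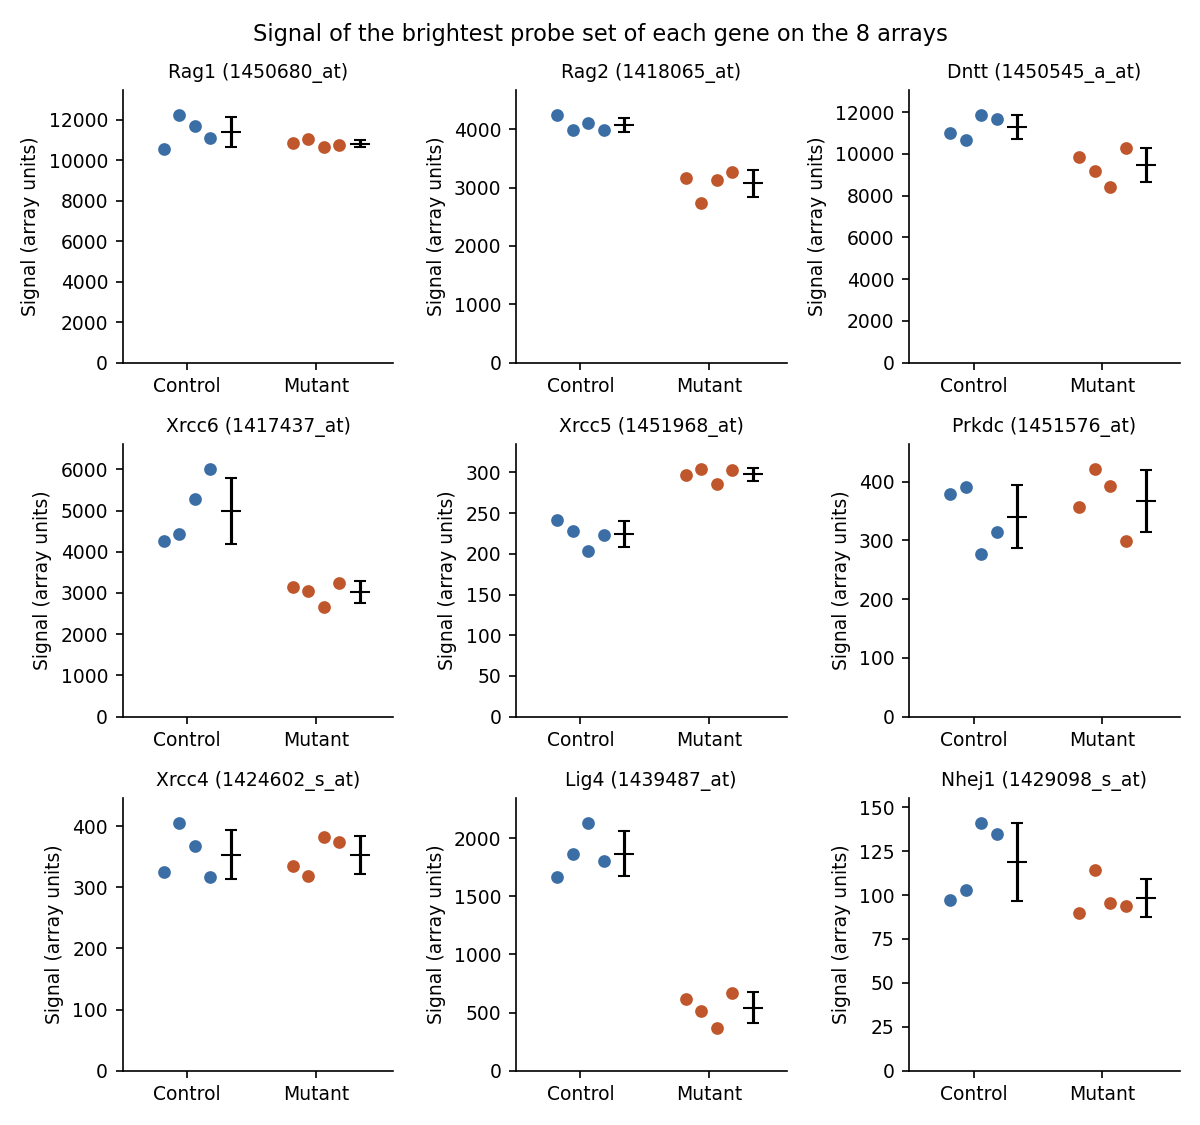
Signal (array units, axis from 0) of the brightest probe set of each of the 9 measured genes. Each point is 1 array, left to right replicates 1 to 4, and black bars are the mean ± SD of 4. Lig4, Xrcc6, Rag2 and Dntt lie lower on all 4 Mutant arrays than on any Control array, and Xrcc5 lies higher.

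The recombinase subunits came first. Rag2 (probe set 1418065_at) read 4240.3, 3987.2, 4104.2 and 3979.6 on Control replicates 1 to 4 and 3168.5, 2737.5, 3126.7 and 3266.4 on Mutant replicates 1 to 4. All Mutant arrays lay below all Control arrays, and the gap between the groups, from 3266.4 to 3979.6, was wider than the range within either. The mean fell from 4078 ± 122 to 3075 ± 232 (SD, n = 4 each). The log2 difference was -0.41 ± 0.07 (SE), with a 95% confidence interval of -0.57 to -0.25 and a limma adjusted p of 0.00557.

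Rag1 (1450680_at), the subunit that holds the catalytic site, read 10569.3, 12221.4, 11712.7 and 11078.9 on Control arrays. On Mutant arrays it read 10826.7, 11069.1, 10667.4 and 10730.9. The groups overlapped, with Control replicate 1 below every Mutant array. The log2 difference was -0.07 ± 0.06 (SE, adjusted p = 0.481), and its 95% interval of -0.20 to 0.05 leaves room for a small fall. Quantile normalization moved it to -0.19 (adjusted p = 0.0516), and with the Xist class in the model it turned to 0.03 (adjusted p = 0.941).

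Whether the 2 subunit genes differed in their change was tested on the log2 ratio of Rag2 to Rag1 signal within each array. Only its difference between groups is meaningful, since signals of different probe sets are on different scales. The ratio was -1.31, -1.61, -1.51 and -1.47 on Control arrays and -1.77, -2.01, -1.77 and -1.71 on Mutant arrays. No Mutant array reached the lowest Control value. The difference was -0.34, with a two-sided exact permutation p of 0.0286, the smallest that 70 labellings allow. Quantile normalization reduced it to -0.21 (same p), so the ratio was lower on Mutant arrays under both scalings, while how far Rag1 itself moved depended on the scaling. Without Mutant replicate 2, which had the lowest ratio, the difference was -0.27 (exact p = 0.0571).

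**Figure D2:**
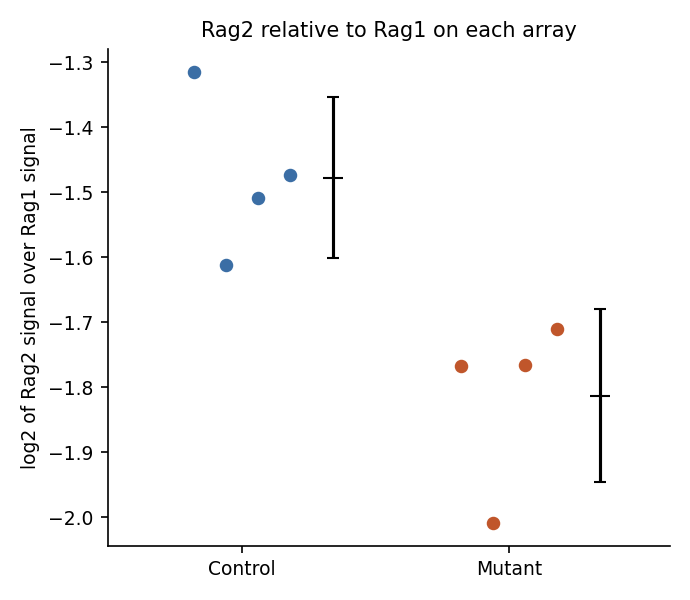
Log2 of Rag2 signal over Rag1 signal on each array, with mean ± SD of 4 beside the points. Control arrays lie between -1.61 and -1.31 and Mutant arrays between -2.01 and -1.71.

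Dntt, whose enzyme adds nucleotides at coding joins, had 3 probe sets. The brightest, 1450545_a_at, read 11007.2, 10653.4, 11851.8 and 11665.1 on Control and 9872.3, 9204.4, 8438.3 and 10297.7 on Mutant arrays, without overlap. It fell by 0.26 ± 0.07 (SE) on the log2 scale, with a limma adjusted p of 0.0403. The call was close to the threshold: adjusted over all 22599 probe sets, of which 5.82% were called (2.68% lower and 3.14% higher), the same probe set had an adjusted p of 0.0548. The other Dntt probe sets overlapped between groups and differed by -0.14 (1449757_x_at, adjusted p = 0.255) and -0.22 (1420166_at, adjusted p = 0.301). On 1420166_at, Mutant replicate 4 (1320.0) was the highest of all 8 arrays and Mutant replicates 1 and 2 (923.6 and 980.5) the lowest. The gene was called in 9 of 20 alternative versions of the fit and in 2 of the 8 fits that left out 1 array, with differences from -0.36 to -0.21.

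The Ku subunits moved in opposite directions. Xrcc6, which encodes Ku70, read 4269.5, 4439.1, 5283.4 and 6002.0 on Control and 3154.2, 3045.7, 2657.3 and 3251.8 on Mutant arrays (1417437_at). Control arrays spread widely, yet the lowest still stood above the highest Mutant array. The fall was 0.71 ± 0.11 (SE) on the log2 scale (95% interval -0.96 to -0.47, adjusted p = 0.0030).

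A dimmer Xrcc6 probe set, 1428504_at, read 133.8, 200.3, 127.8 and 111.3 against 62.1, 77.1, 46.9 and 41.4. It too was lower on every Mutant array, and fell by 1.12 ± 0.21 (adjusted p = 0.0122 over probe sets). Both readings of the gene were thus called in the same direction, with different sizes.

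Xrcc5, which encodes Ku80, read 241.7, 227.5, 202.9 and 223.7 on Control and 297.4, 303.9, 285.9 and 302.9 on Mutant arrays (1451968_at). Every Mutant array was above every Control array, and the Mutant values lay closer together than the Control values. It rose by 0.39 ± 0.10 (SE; adjusted p = 0.0275), but not when adjusted over all probe sets (adjusted p = 0.0599). The call was kept in 3 of 8 fits without 1 array. It ended without Control replicates 3 (adjusted p = 0.0962) and 4 (0.0558) and without Mutant replicates 1 (0.0687), 2 (0.0845) and 3 (0.0545), at differences of 0.34 to 0.41.

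Prkdc, the DNA-dependent kinase that Ku recruits, read 379.2, 390.7, 277.1 and 314.5 against 357.4, 421.1, 392.4 and 298.2 (1451576_at). The groups were interleaved, and the difference of 0.11 ± 0.14 (SE) had a 95% interval of -0.20 to 0.41 (adjusted p = 0.692).

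Lig4, the ligase of the final joining step, showed the largest difference of the group. Its probe set 1439487_at read 1663.1, 1865.7, 2127.0 and 1801.8 on Control and 615.3, 515.6, 369.7 and 669.5 on Mutant arrays. The groups lay far apart, with 669.5 as the highest Mutant and 1663.1 as the lowest Control value. The mean fell from 1864 ± 194 to 543 ± 132 (SD, n = 4 each), a log2 difference of -1.78 ± 0.16 (SE; 95% interval -2.14 to -1.42; adjusted p = 0.000154). Only 9 of the 9941 tested genes had a lower difference, and 60 genes were called with a fall of at least 2-fold.

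Lig4 was called in all 20 alternative versions of the fit, with differences from -1.89 to -1.61. In the fit that carried the Xist class, which rests the Control side on Control replicate 1 alone, the difference was -1.62 (adjusted p = 0.0476), and 0.262% of all genes were called (0.111% lower and 0.151% higher). It was the only one of the 9 genes called there: Xrcc6 differed by -0.50 (adjusted p = 0.294), Rag2 by -0.46 (0.162), Dntt by -0.22 (0.567) and Xrcc5 by 0.28 (0.598). Control replicate 1, the Control array with high Xist, read 1663.1 for Lig4 and 4240.3 for Rag2, above all 4 Mutant arrays for both. With 1 probe set for Lig4, no second reading of the gene was available.

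Xrcc4, the scaffold partner of Lig4, did not follow it. Probe set 1424602_s_at read 325.7, 404.9, 367.5 and 316.7 against 335.0, 319.0, 382.7 and 374.2, and the means were 354 ± 40.7 and 353 ± 30.6. The log2 difference was -0.001 ± 0.11 (SE; 95% interval -0.24 to 0.24; adjusted p = 0.997), and that of 1424601_at was 0.02 (adjusted p = 0.922). The intervals of Xrcc4 and Lig4 did not overlap.

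Nhej1, which encodes the Xrcc4-like factor XLF, was dim. Probe set 1429098_s_at read 97.3, 102.6, 140.9 and 134.9 against 89.9, 114.4, 95.2 and 93.6, with overlap between groups. Its difference was -0.23 ± 0.15 (SE; 95% interval -0.56 to 0.10; adjusted p = 0.390). Its other probe set, 1425651_at, read 19.9 to 40.2 over all 8 arrays and was the 1 of 14 that did not pass the filter on dim signals, which required a signal above 33.8 on at least 4 arrays.

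**Figure D3:**
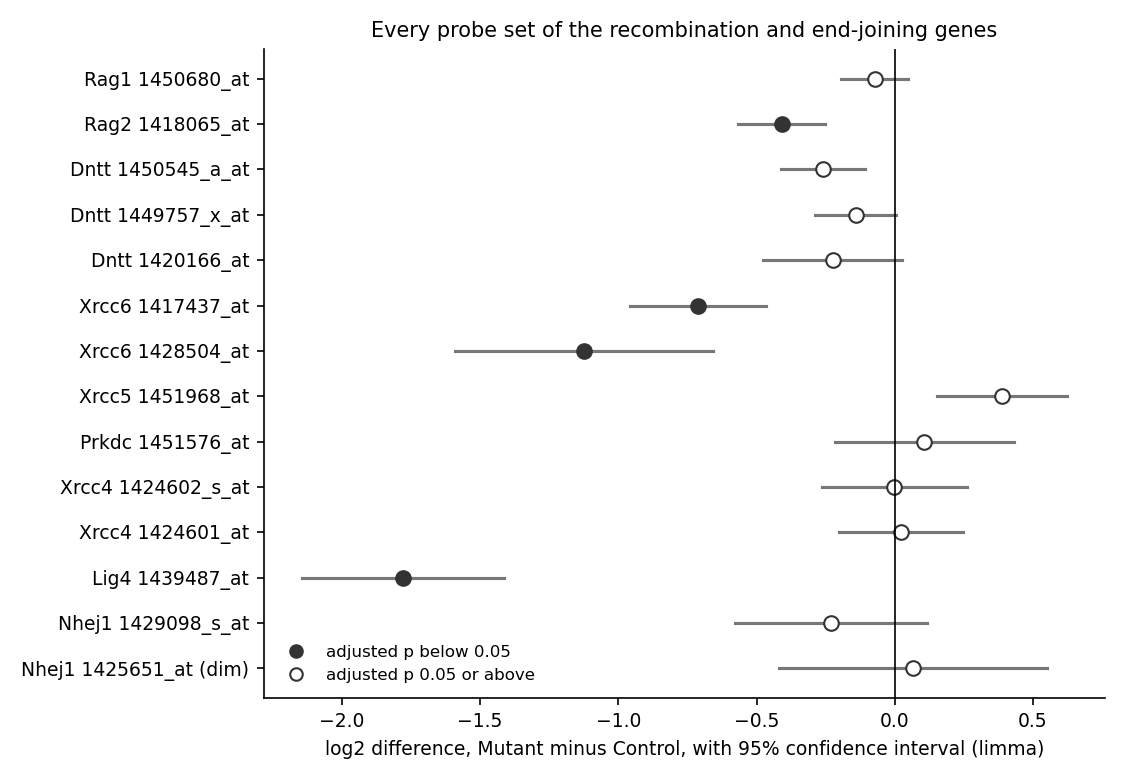
Log2 difference (Mutant minus Control) of all 14 probe sets with its 95% confidence interval, from the limma fit over 22599 probe sets; the dim Nhej1 probe set is from the fit with no filter. Filled points have an adjusted p below 0.05: Lig4, both Xrcc6 probe sets and Rag2, all to the left of 0.

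The wider machinery of break repair showed 0 calls. In the lists of other end-joining factors (10 tested), break response (17), alternative end joining (6) and homologous recombination (15), 0 of 48 genes passed in limma. Of all tested genes, 9.98% were called. At an unadjusted p below 0.05 there were 5 of 48, against 25.1% of all tested genes. Medians were -0.01, -0.07, 0.09 and -0.04 in that order, and differences ran from -0.31 (Tdp2) to 0.34 (Xrcc3). The brightest genes were Tdp2, which removes topoisomerase adducts from DNA ends (-0.31, adjusted p = 0.197), the histone variant gene H2ax (-0.14, adjusted p = 0.631), the flap nuclease gene Fen1 (0.10, adjusted p = 0.812) and the single-strand binding gene Rpa1 (0.06, adjusted p = 0.683). Without Control replicate 2, which read low, Tdp2 differed by -0.44 and was called (adjusted p = 0.0379).

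Genes for partners and turnover of the RAG proteins did not pass either. Of 7 tested, 0 were called in limma, against 9.98% of all tested genes, and the median was -0.17. At an unadjusted p below 0.05 there was 1 of 7, against 25.1% of all tested genes. Hmgb2, a chromatin protein that assists RAG cutting, read 6938 ± 725 and 6857 ± 685 (log2 -0.02, adjusted p = 0.942). Cdk2, whose kinase marks Rag2 protein for destruction at S phase, differed by -0.31 (adjusted p = 0.0816). It lay lower on all 4 Mutant arrays than on any Control array, as did 7.11% of all tested genes.

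**Figure D4:**
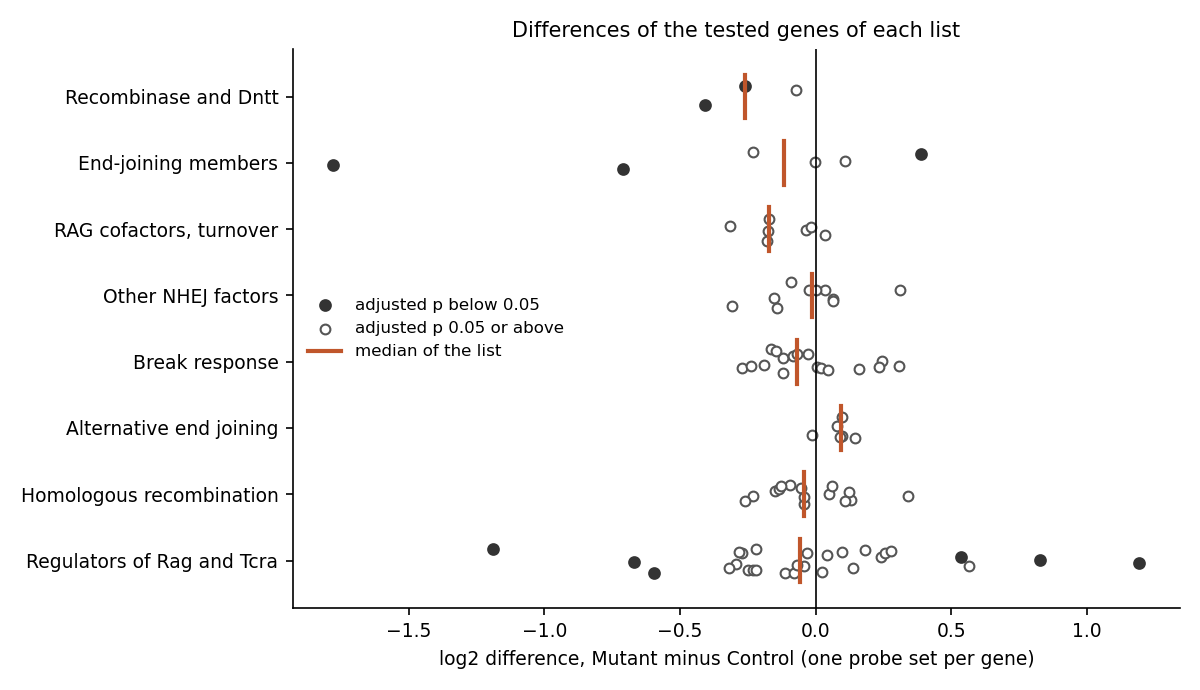
Log2 difference (Mutant minus Control) of each tested gene, by list; vertical spread within a list is only to separate points, and orange bars are list medians. Filled points passed the test: 5 genes of the recombination and end-joining group and 6 regulators, and 0 in the 5 lists of partner, repair and response genes.

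Among 28 transcription factors and related regulators of the Rag genes and of the T-cell receptor alpha locus, 3 rose, 3 fell and 22 did not pass, with a median of -0.06. Of all tested genes, 5.89% were called higher and 4.08% lower. At an unadjusted limma p below 0.05 there were 14 of the 28, against 25.1% of all tested genes. Foxo1, which activates Rag transcription in B-lineage cells, rose from 358 ± 65.1 to 832 ± 34.7 (log2 1.19 ± 0.12, adjusted p = 0.000304), and by 1.24 and 1.28 on its other probe sets. Tcf4, an E protein gene, rose by 0.54 ± 0.11 (adjusted p = 0.0104), and 1 of its 4 other probe sets passed (0.59, adjusted p = 0.0444), while the other three differed by 0.34 to 0.44 and did not (0.177 to 0.344). Notch1 rose by 0.83 (adjusted p = 0.0360), with 0.43 on its other probe set (adjusted p = 0.220).

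Gfi1, which encodes a repressor of transcription, fell from 1883 ± 240 to 826 ± 176 (log2 -1.19 ± 0.15, adjusted p = 0.000957). Smarca4, the ATPase of the BAF remodelling complex, fell by 0.67 ± 0.11 (adjusted p = 0.0030), and by 0.65 on its other probe set. Egr1 fell by 0.60 (adjusted p = 0.0215). Notch1 lost its call without Control replicate 3 or 4 or Mutant replicate 1, 2 or 3 (adjusted p = 0.0782 to 0.111), and Egr1 without Mutant replicate 1, 2 or 3 (0.0557 to 0.0701). The T-lineage factor Gata3 differed by -0.32 (adjusted p = 0.149), the E protein gene Tcf12 by -0.22 (0.123) and the chromatin organiser gene Satb1 by -0.03 (0.743), and none of these 3 passed.

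T-cell receptor genes are what the reaction assembles, and 17 probe sets were named for these loci. Of the 15 that passed the filter, 2 were called higher, and 3 with a signal above the dim limit in both groups were called lower. Over all tested probe sets the shares were 3.14% higher and 2.68% lower. The 3 called lower were annotated to the alpha variable gene Trav9d-3. The alpha probe sets of Trav12n-1, Trav12n-2 and Trav13-5 did not pass (-0.36, -0.78 and 0.41; adjusted p = 0.398, 0.144 and 0.287), and the loci were not tested against each other. The brightest, 1426113_x_at, read 7807.3, 8329.7, 7481.4 and 6540.9 on Control and 5784.3, 6024.8, 4739.5 and 5908.3 on Mutant arrays (log2 -0.43 ± 0.09, adjusted p = 0.0260). All 4 Mutant arrays lay below all Control arrays, with Mutant replicate 3 the lowest. Probe set 1426168_a_at fell from 2916 ± 218 to 1716 ± 156 (log2 -0.76 ± 0.09, adjusted p = 0.00119) and was called in each of the 8 fits without 1 array. Probe set 1452405_x_at differed by -0.51 (adjusted p = 0.0254). A further Trav9d-3 probe set, 1427653_at, overlapped between groups and did not pass (-0.61, limma adjusted p = 0.253). Another, 1427766_at, read 42.6 to 61.4 on Control arrays and 14.8 to 22.6, below the dim limit of 33.8, on Mutant arrays, so it passed the filter through the Control group alone and is not counted. The calls of 1426113_x_at and 1452405_x_at ended without Control replicate 1, 2 or 3 or Mutant replicate 1, 2 or 3 (adjusted p = 0.0524 to 0.0792). Variable genes of this family are near copies of each other, so the probe sets cannot be tied to 1 gene.

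Of 4 gamma variable gene probe sets past the filter, 2 were called higher, both annotated to Trgv4. The others overlapped between groups and did not pass: 1427608_a_at (Trgv1) differed by 0.96 (adjusted p = 0.0922) and 1427802_a_at (Trgv4) by 1.16 (0.111). Probe set 1450521_a_at read 215.1, 327.3, 185.4 and 392.8 on Control and 694.7, 742.9, 1152.6 and 455.7 on Mutant arrays, without overlap (log2 1.38 ± 0.28, adjusted p = 0.0185). Its call ended without Control replicate 1 or 3 or Mutant replicate 1 or 2 (adjusted p = 0.0515 to 0.0630). Probe set 1422189_x_at rose from 292 ± 82.5 to 711 ± 288 (adjusted p = 0.0240), losing its call without Control replicate 1 or 3 or Mutant replicate 2 (0.0634 to 0.0817). Of the beta locus, the brightest probe set 1452205_x_at (Trbv1), whose gene is rearranged before the double-positive stage, read 13978 ± 334 and 13365 ± 474 (log2 -0.07, adjusted p = 0.480). The other Trbv1 probe set, 1433108_at, lay lower on all Mutant arrays but did not pass (log2 -0.21, limma adjusted p = 0.262). Trbv13-2 did not pass either (-0.06, adjusted p = 0.796).

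Markers of other cells moved with some of these differences, and their part in the results was not tested. Selection with the CD4 antibody is meant to remove cells without CD4, such as double-negative thymocytes. How many such cells remained was not measured here. Double-negative thymocyte markers, of the stage before, had 2 of 6 tested genes called higher (Il2ra by 3.20 and Dtx1 by 2.82, with 2.66 and -0.08 on their other probe sets, adjusted p = 0.00221 and 0.910). Of all tested genes, 5.89% were called higher. The summed signal of the 6 was 358 to 678.1 on Control and 1292 to 3250 on Mutant arrays, a rise that came mostly from Il2ra and Dtx1. Cd44, Hes1, Il7r and Kit overlapped between groups and did not pass (-0.22, 0.59, 0.52 and 0.40, limma adjusted p = 0.410, 0.294, 0.447 and 0.376). Natural killer and gamma-delta markers had 1 of 3 tested called higher (Gzma by 0.75) and 2 at an unadjusted p below 0.05, against 25.1% of all tested genes. Klrd1 lay higher on all Mutant arrays but did not pass (0.78, limma adjusted p = 0.155), and Nkg7 overlapped between groups (0.39, 0.435). Sums were 2045 to 2597 and 3130 to 4312 and came mostly from Gzma, with Ncr1 and Zbtb16 dim on all arrays. B-lineage markers had 0 of 3 tested called (1 at an unadjusted p below 0.05), with sums of 7259 to 7484 and 7872 to 8758 that came mostly from Ighm, while Cd79a and Ebf1 were dim on all arrays. Macrophage and dendritic markers (6 tested) and stroma markers (3 tested) had 0 called in limma, with 0 and 2 at an unadjusted p below 0.05. Sums were 349.1 to 657.9 and 407 to 576.9 for macrophage markers, and 793.5 to 858.1 and 563.1 to 811.5 for stroma markers, of which Col1a1, Col3a1 and Foxn1 were dim on all arrays. The brightest of each did not pass: Lyz2 differed by 0.32 (adjusted p = 0.569) and Pecam1 by -0.36 (0.139), and Ighm of the B lineage by 0.18 (0.0762). The 1 erythroid gene tested, Hba-a2, did not pass either (-0.12, adjusted p = 0.665), with sums of 131 to 211.3 and 115 to 165.8.

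The genes whose pattern over the 8 arrays was most like a member were found by the root mean square difference of centred log2 signals. The difference between groups is part of that pattern. A similar difference in the chosen genes therefore follows from the choice and is no separate support. For Rag2 these were the phosphatase subunit gene Ppp6c (0.07, with a difference of -0.39), Spty2d1 (0.07, -0.33) and the lactate dehydrogenase gene Ldhb (0.07, -0.36), and all 3 were called lower (adjusted p = 0.0113, 0.0340 and 0.0219). For Dntt they were Zfp410, Stag2 and Ino80c (0.04 each), with differences of -0.26, -0.19 and -0.22, and none of these 3 passed (adjusted p = 0.0657, 0.180 and 0.190).

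**Figure D5:**
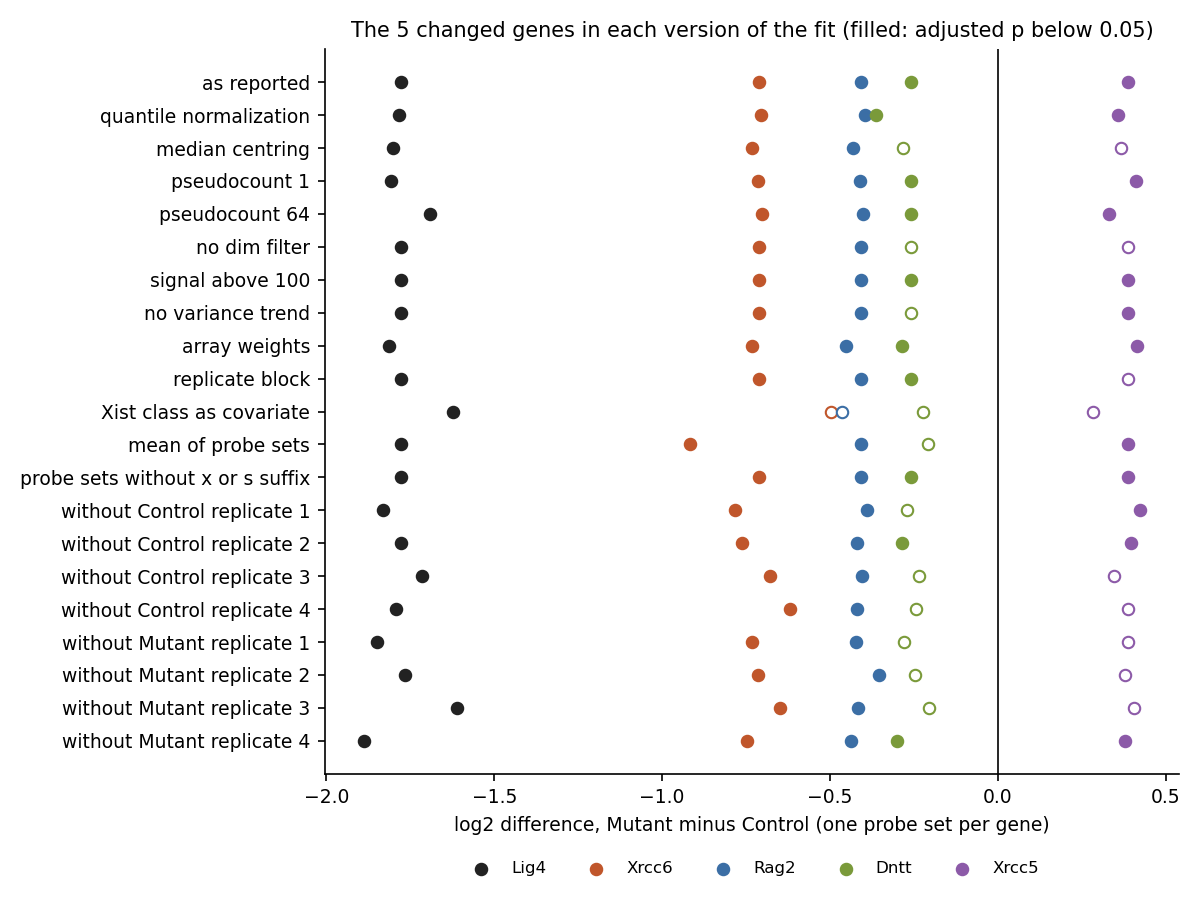
Log2 difference (Mutant minus Control) of the 5 changed genes in the reported fit and in 20 alternative versions of it, 1 row each; filled points have an adjusted p below 0.05. Lig4 stays between -1.89 and -1.61 and is filled throughout; Rag2 and Xrcc6 are open only with the Xist class, and Dntt and Xrcc5 are open in 11 and 9 versions.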

How the data were processed

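The deposited table gives a linear signal intensity for every probe set on 8 one-colour arrays, made by the authors with GCOS, per the submitters' processing notes. The sources used here do not give its version, settings or a genome build. Of 45101 probe sets, 64 controls were left out, and 34945 had 1 gene symbol, 932 several and 9160 none. Of those with 1 symbol, 34741 probe sets had a gene identifier that matched RefSeq (GRCm38.p6), used for symbols and promoter windows. Groups came from the sample titles. The titles name the arrays biological replicates but not the animals behind them, so p-values measure the spread between these arrays, whose number limits the precision. No scan date was at hand.

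Signals were converted to log2(signal + 16), which understates changes of dim genes. Probe sets above the table median, 33.8, on at least 4 of 8 arrays were kept, and each gene was represented by its brightest probe set (9941 genes); a second fit kept all 22599 probe sets. limma 3.58.1 in R 4.3.3 (lmFit, eBayes with trend) gave two-sided p-values, adjusted by Benjamini-Hochberg at 0.05. The Rag2 to Rag1 ratio had an exact permutation test. The fit code was checked on simulated data with independent normal values and no Xist or array effect. That check bears on the code and not on the calls. Alternatives changed scaling, pseudocount, filter, probe set choice, variance model, weights, the replicate number as a block, an Xist class (cut at 1000) and left out each array. Members, lists and alternatives were chosen with earlier results of these data known. Of each other list the text names the called genes (at most 6, by size) or the brightest where none passed; the list extremes, Cdk2, Gata3, Tcf12 and Satb1 were named after their values were seen. Python 3.11.15, pandas 2.3.3 and matplotlib 3.10.9 made tables and plots.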

Additional observations from a re-analysis of the deposited data

Results flagged for a closer look

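By Dixon's criterion a single array stood off in 5 of 98 sets of 4 values, and about 1 in 20 sets does so by chance. The Xist probe set 1436936_s_at read 4358.5 on Control replicate 1 against 23.4 to 36.7 on the other Control arrays. Tdp2 read 1090.8 on Control replicate 2 against 1529.1 to 1636.8. The remaining 3 were all on Mutant replicate 3, for T-cell receptor locus probe sets: 4739.5 for Trav9d-3 on 1426113_x_at (others 5784.3 to 6024.8), 3829.6 for Trav9d-3 on 1452405_x_at (others 4608.0 to 4724.0) and 607.7 for Trbv13-2 on 1427628_at (others 696.7 to 708.5). Of the 14 probe sets of recombination and end-joining genes, 0 had such an array in either group.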

How the results depend on the processing

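Of the 9 genes, Lig4 kept its call in all 20 alternatives, Rag2 and Xrcc6 in 19, Xrcc5 in 11 and Dntt in 9, and no called difference changed sign. With the Xist class in the model, 1 of the genes was called lower and 0 higher, against 4 and 1 as reported, and the count over all genes was 26 of 9941 instead of 992 (8 instead of 1316 over all probe sets); that fit compares the Mutant arrays with 1 Control array. Array weights gave 1745 genes and 2631 probe sets. The count of genes of the group called higher was 0 with median centring, with no filter and with the replicate block, where Xrcc5 had adjusted p = 0.0543, 0.0609 and 0.0531. Leaving out 1 array gave 494 to 1195 genes, 561 to 1493 probe sets, 3 to 4 members called lower, 0 to 1 higher and a Rag2 to Rag1 difference of -0.38 to -0.27. The gene count moved by over 1.5 times without Control replicate 3 (494) or Mutant replicate 1 (605), 2 (515) or 3 (578), and that of probe sets also without Control replicate 4 (866). The causes were not tested. Paired by replicate number, the ratio differed by -0.34 with an exact p of 0.125, the smallest that 4 pairs allow. The numbers were not treated as pairs: deviations of same-numbered arrays correlated at -0.37 to 0.33 over probe sets, and the replicate block changed the gene count to 1035. Dim signals limit Nhej1 most, and 1 probe set each limits Rag1, Rag2, Prkdc, Lig4 and Xrcc5.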

Other observations

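Lig4, chosen for this after its values were seen, had as its nearest patterns over the 8 arrays Cxcr4, the chemokine receptor gene of double-positive cells (root mean square difference 0.13, with a difference of -1.78 on the log2 scale, limma adjusted p = 0.000583), the guidance factor gene Ntn1 (0.16, a difference of -1.72, adjusted p = 0.000912) and Rnf157 (0.18, a difference of -1.54, adjusted p = 0.000270). For Xrcc6 these were Tap2, a peptide transporter gene (0.08, a difference of -0.70, adjusted p = 0.0107), Rptor, the raptor subunit of mTORC1 (0.08, a difference of -0.83, adjusted p = 0.00258), and Trat1 (0.10, a difference of -0.75, adjusted p = 0.00762). The difference between groups is part of the pattern by which all these genes were chosen, so their differences follow from the choice.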
